A study of Mus musculus with 2 samples.

Results

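Radial glia are the neural stem cells of the embryonic cortex. They line the ventricle, divide there, and give rise to neurons, intermediate progenitors and later glia. The genes that mark them belong to several kinds of protein. *Pax6* encodes a paired-box and homeodomain transcription factor of dorsal forebrain progenitors. *Nes* (nestin) and *Vim* (vimentin) encode intermediate filament proteins of the radial fibre. *Fabp7*, also called brain lipid-binding protein, encodes a fatty acid binding protein and is a known Notch target. *Prom1* (prominin 1, CD133) encodes a membrane glycoprotein of apical protrusions. *Hopx* encodes a small homeodomain protein that does not bind DNA and that marks outer radial glia in primates. The 6 genes are described as a set fixed by name, and no threshold on measured values defines it. All 6 are present among the 10666 genes of the expression table.

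The cells came from 2 replicate cultures of 1 condition. Dorsal telencephalon of wild-type C57BL/6 mice at E14.5 (embryonic day 14.5) was cultured as neurospheres, which are floating aggregates of neural stem and progenitor cells. The medium held EGF and bFGF at 10 ng/ml each, and the aggregates were dissociated for single-cell RNA-seq of 3′ ends. EGF and bFGF keep such cells dividing, and a neurosphere is a culture model without the ventricle or the radial fibre. The data hold 5748 cells of culture 1 and 7057 of culture 2, with no treated or mutant group, so no test between groups was possible and cells were not treated as replicates. It is not stated whether the cultures came from separate embryos or litters.

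Depth differed between the cultures, with a median of 19477 UMIs per cell (quartiles 15018 and 24371) in culture 1 and 14637 (12271 and 17565) in culture 2. Shares of cells are therefore also given for cells of 12000 to 18000 UMIs, which had medians of 15329 (1693 cells) and 14638 (3890 cells). The libraries shared 48 cell barcodes. The deposited values are on a linear scale, normalized for the depth of each cell, and also carry a factor for each gene in each culture. Converted with each cell's depth, the *Pax6* values near a single UMI had a median of 1.21 in culture 1 and 0.897 in culture 2. Those of *Nes* had medians of 0.955 and 1.14. Mean levels of the same gene were therefore not compared between cultures, whereas a zero is unaffected by such a factor. Intervals for shares are exact 95% binomial intervals and cover counting error only.

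The labelled cell type was checked first against its markers. Of 30 other genes of radial glia and neural stem cells listed for this purpose, 22 are in the table, and detection of these in culture 1 ranged from 5.93% to 99.9% of cells, and in culture 2 it ranged from 4.35% to 100%. *Slc1a3*, the glial glutamate transporter GLAST, was detected in 92.1% and 94.0% of cells. *Olig2*, a transcription factor of the oligodendrocyte lineage and of ventral progenitors, was detected in 97.3% and 91.9%. Of the listed markers of other cells, none of 7 for intermediate progenitors, none of 4 for ependyma and choroid plexus and none of 12 for endothelium, microglia, mesenchyme and blood are among the genes analysed here, so those cells could not be assessed. Markers of neurons and glia were not at 0. The 5 neuron genes in the table were detected in 3.25% to 32.6% of cells of culture 1 and 0.709% to 39.7% of culture 2, with the RNA-binding protein genes *Elavl3* (30.7% and 39.7%) and *Elavl4* (32.6% and 22.9%) highest and *Dcx*, a microtubule-associated protein of young neurons, at 7.34% and 1.56%. Of the 6 oligodendrocyte-lineage genes, *Nkx2-2* was found in 28.1% and 26.2%, *Lhfpl3* in 41.7% and 24.5%, and *Sox10*, a transcription factor of that lineage, in 4.26% and 0.751%. The 5 astrocyte genes ranged from *S100b*, a calcium-binding protein (18.6% and 6.65%), to *Apoe*, an apolipoprotein (72.3% and 40.6%). *Slc1a3* and *Olig2* were thus each detected in nearly all cells. The listed radial glia genes were uneven, for example with *Gli3* in 5.93% and 6.04% of cells and *Dbi* in 99.9% and 99.99%. The name radial glia is used below for the genes and not for the cells.

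Detection fell into 3 levels that separated the 6 genes, as the plot of detection by gene and culture shows. *Fabp7* and *Vim* were found in essentially every cell: *Fabp7* in 100% of cells of culture 1 (95% interval from 99.9 to 100) and 99.96% of culture 2, and *Vim* in 99.2% and 99.9%. *Nes* was detected in 93.3% (92.6 to 93.9) and 89.8% (89.1 to 90.5). *Pax6* and *Hopx* were found in a minority of cells, *Pax6* in 21.1% (20.1 to 22.2) and 23.1% (22.2 to 24.1), and *Hopx* in 22.2% (21.1 to 23.3) and 17.1% (16.2 to 18.0). *Prom1* was found in 2.51% (2.12 to 2.94) and 2.17% (1.84 to 2.54), that is in 144 and 153 cells.

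**Figure D1:**
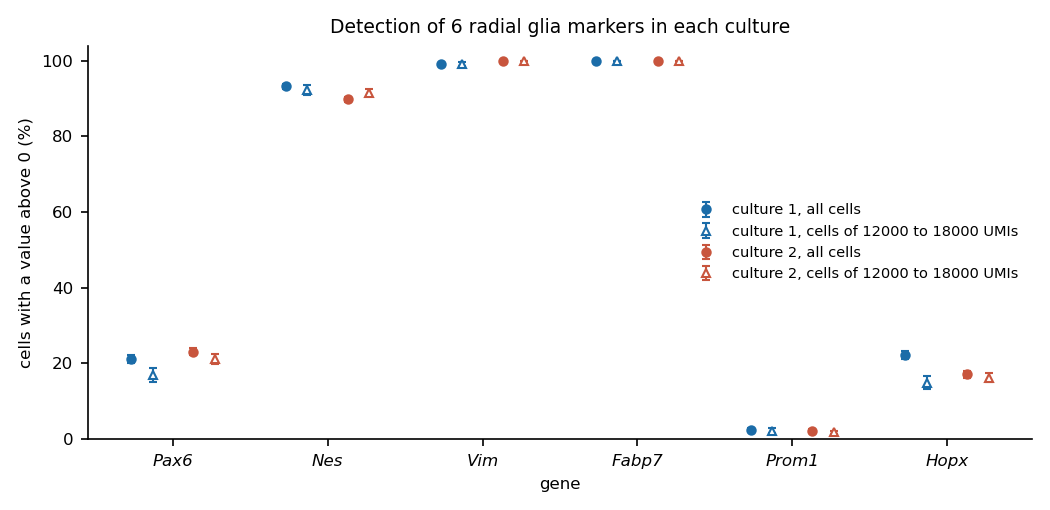
Share of cells with a value above 0 (y axis, percent) for each gene (x axis) in culture 1 (blue) and culture 2 (red). Filled circles are all cells, open triangles cells of 12000 to 18000 UMIs, and bars exact 95% binomial intervals. *Fabp7*, *Vim* and *Nes* lie at 89.8% or above, *Pax6* and *Hopx* between 14.8% and 23.1%, and *Prom1* at or below 2.51%.

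Detection of the rarer genes moved with depth. Each culture was split into 4 equal groups of cells by depth. Between the shallowest and the deepest of these groups, *Pax6* detection went from 11.3% to 32.3% (culture 1) and from 14.3% to 36.9% (culture 2). *Hopx* went from 10.8% to 34.4% and from 12.6% to 23.6%. At matched depth the order of the cultures changed for *Hopx*, with 14.8% (13.1 to 16.5) in culture 1 and 16.2% (15.1 to 17.4) in culture 2, whose intervals overlap. *Nes* came to 92.3% and 91.6%, again with overlapping intervals, and *Prom1* to 2.19% and 1.77%. *Pax6* stayed higher in culture 2, at 21.2% (19.9 to 22.5) against 16.8% (15.1 to 18.7), and with 2 cultures this difference has no test. A value of 0 in these cells therefore also depends on depth.

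Many of the *Pax6* values were fractions of a UMI. Converted with each cell's depth alone, 41.1% of the nonzero *Pax6* values in culture 1 and 53.2% in culture 2 came to less than 0.75 UMI. The medians of these low values were 0.611 and 0.448. For *Nes*, *Vim*, *Fabp7* and *Hopx* the share under 0.75 UMI was at most 0.497%, and for *Prom1* it was 7.64% and 4.58%. Counting only values worth 0.75 UMI or more by this conversion, *Pax6* was detected in 12.5% and 10.8% of cells. The factor of the gene in each culture was left in, so the converted values are not exact UMIs. The cut of 0.75 therefore falls at a different fraction of a UMI in each culture, and these shares are not compared between cultures. The authors' quantification divides reads that fit more than 1 gene or form, and which reads were divided was not tested.

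Mean levels kept 1 order in both cultures: *Fabp7* was highest, followed by *Vim*, *Nes*, *Hopx*, *Pax6* and *Prom1*. Because a 3′ library counts 1 end of each molecule, values were not divided by transcript length, and all are deposited normalized values. The mean of *Fabp7* was 91.9 in culture 1 and 90.7 in culture 2, which placed it above 99.97% of genes in each. *Vim* had means of 29.9 and 29.6 (above 99.4% of genes in each), and *Nes* of 4.71 and 4.46 (above 96.5% and 96.4%). *Hopx*, at 0.264 and 0.30, and *Pax6*, at 0.215 and 0.205, were next to each other near the middle of all genes. Their order rests on the scale, since more cells of culture 2 had *Pax6* than *Hopx*. *Prom1* averaged 0.0242 in each culture and lay above 10.8% and 11.3% of genes.

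Among cells, the abundant members were spread widely. The middle 80% of cells of culture 1 spanned values of *Fabp7* from 46.2 to 143.6 around a median of 87.1, and those of culture 2 from 39.9 to 151.9 around 82.4. For *Vim* the same span was 13.1 to 49.2 around 27.8 in culture 1, and 10.2 to 54.9 around 24.3 in culture 2. The coefficient of variation of *Vim* was 0.504 and 0.704, and that of *Fabp7* 0.434 and 0.525. The values of *Nes* in the middle 80% of cells spanned 1.01 to 9.0 in culture 1, while in culture 2 they began at 0 and ended at 9.04. In cells with *Pax6* detected its median value was 0.818 and 0.667, and for *Hopx* the median was 0.913 and 1.39.

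The 6 genes lie on 4 chromosomes of GRCm38 (GENCODE vM21). *Pax6* is at chr2:105668900-105697364 on the plus strand and *Vim* at chr2:13573927-13582826, also on the plus strand. *Nes* is at chr3:87971078-87980451 (plus), *Fabp7* at chr10:57784881-57788450 (plus), *Prom1* at chr5:43993620-44102032 (minus) and *Hopx* at chr5:77086988-77115121 (minus). All are protein-coding. On the opposite strand *Prom1* shares 424 exonic bases with Gm16401 and *Hopx* 412 with Hopxos, whereas *Pax6* shares none with Pax6os1. None of these antisense genes is in the table, and how reads of shared bases were assigned was not tested.

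Promoters of 4 members are shown: the pair with the strongest r below (*Nes* and *Vim*), the member with the highest lower R² along the cell cycle (*Pax6*) and the most abundant one (*Fabp7*). They are from RefSeq (GRCm38.p6), as 250 bases before to 50 bases from the start site, on the gene's strand. Capitals mark matches on either strand to TGGGAA (the core bound by RBPJ, the DNA-binding protein of Notch signalling), CCAAT (the core bound by NF-Y) and TTTGAA (the cell-cycle homology region, or CHR). All 32851 promoters of the same length were searched in the same way, and 25.6% held TGGGAA, 37.4% CCAAT and 17.9% TTTGAA.
Nes, chr3:87970843-87971142, plus strand: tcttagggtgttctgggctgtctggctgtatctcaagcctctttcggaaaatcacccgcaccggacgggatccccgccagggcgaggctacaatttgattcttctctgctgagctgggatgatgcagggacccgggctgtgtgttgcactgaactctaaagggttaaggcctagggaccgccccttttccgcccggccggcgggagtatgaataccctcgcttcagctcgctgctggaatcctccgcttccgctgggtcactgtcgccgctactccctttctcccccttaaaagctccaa
Vim, chr2:13574061-13574360, plus strand: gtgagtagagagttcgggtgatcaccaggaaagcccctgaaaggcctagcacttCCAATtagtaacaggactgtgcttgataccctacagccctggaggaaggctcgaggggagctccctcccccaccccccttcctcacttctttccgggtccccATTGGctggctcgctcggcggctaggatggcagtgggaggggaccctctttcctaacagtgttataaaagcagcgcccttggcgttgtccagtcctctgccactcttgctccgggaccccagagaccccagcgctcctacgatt
Fabp7, chr10:57784673-57784972, plus strand: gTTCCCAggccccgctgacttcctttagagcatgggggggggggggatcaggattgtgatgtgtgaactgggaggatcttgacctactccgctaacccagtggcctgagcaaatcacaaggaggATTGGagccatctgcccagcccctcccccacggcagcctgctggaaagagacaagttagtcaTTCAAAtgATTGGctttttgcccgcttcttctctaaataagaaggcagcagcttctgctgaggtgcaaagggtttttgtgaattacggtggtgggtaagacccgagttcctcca
Pax6, chr2:105668646-105668945, plus strand, first of 2 listed promoters: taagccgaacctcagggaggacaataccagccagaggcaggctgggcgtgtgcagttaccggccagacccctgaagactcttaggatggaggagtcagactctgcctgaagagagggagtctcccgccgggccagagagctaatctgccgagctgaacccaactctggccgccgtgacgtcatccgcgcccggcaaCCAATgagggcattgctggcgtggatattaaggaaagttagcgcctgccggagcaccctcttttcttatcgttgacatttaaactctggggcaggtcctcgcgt

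With the start site at 0, the *Vim* window held CCAAT, or its reverse complement, at -196 and -94. The *Nes* window held none of the 3 motifs. The *Fabp7* window held all 3, with TGGGAA at -249, CCAAT at -126 and -56 and TTTGAA at -64. The first *Pax6* promoter held CCAAT at -54. *Prom1* held TGGGAA at -116 and CCAAT at -35, and both listed *Hopx* promoters held CCAAT, at -187 and -188. The SOX core TTGT was also searched. It is in the first window of every member and in 81.0% of all promoters. A match describes letters in this window and not a bound site.

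The next question was whether the members follow the cell cycle. The deposited cell-cycle position is an angle from 0 to 2π for each cell, and cells are named below by their position and not by a stage. As landmarks, *Top2a*, the topoisomerase that decatenates replicated chromosomes, had its highest log2(value + 1) class means at 0.75 to 1π (2.55 in culture 1 and 2.78 in culture 2) and its lowest at 1.75 to 2π (0.145 and 0.146). Median UMIs per cell were lowest at 1.25 to 1.5π (14111 and 11882). For each gene, R² is the share of the variance of log2(value + 1) over cells that 2 harmonics of the position explain, and a gene was called when R² was at least 0.05 in both cultures. The position was computed from genes of the same cells, and whether a member was among those genes is not known here.

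None of the 6 members was called, against 428 of 10666 genes, or 4.01%. In culture 2 alone *Vim* (0.0937) and *Pax6* (0.0515) passed 0.05, beside 4.26% of all genes, and in culture 1 alone no member did, beside 5.6%. *Pax6* had the highest lower value, 0.0232 in culture 1, which was above that of 92.6% of genes (rank 788). It was the 1 member that passed a threshold of 0.02 in both cultures, where 8.34% of genes passed. *Nes* had R² of 0.00648 and 0.0238, and *Fabp7* of 0.00247 and 0.00987. *Prom1* (0.00145 and 0.00347) and *Hopx* (0.00106 and 0.00428) stayed under 0.005. An R² of log2 values understates a change in genes found in few cells, and their detection is given by class below.

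*Pax6* was highest just past π in both cultures. In culture 1 it was detected in 33.0% of the 1064 cells at 1 to 1.25π (30.2 to 35.9) and in 14.8% of the 1789 cells at 1.75 to 2π. In culture 2 the same classes gave 42.0% of 1120 cells (39.1 to 44.9) and 15.9% of 3149 cells. Past this high the shares dropped to 9.41% of 85 cells (4.15 to 17.7) and 15.4% of 279 cells (11.4 to 20.2) at 1.25 to 1.5π. Mean log2(value + 1) of the depth-normalized values went from 0.331 to 0.142 and from 0.371 to 0.137 between the same classes. The maximum of a periodic loess line was at 1.11π in culture 1 and at 1.015π in culture 2.

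Depth moved with this pattern, since median UMIs at 1 to 1.25π were 20527 and 17813 and those at 1.75 to 2π were 18437 and 13991. In cells of 12000 to 18000 UMIs the *Pax6* shares were 28.0% and 38.5% at 1 to 1.25π, against 13.1% and 16.3% at 1.75 to 2π. With depth (log2 UMIs, linear and squared) as a term of the fit, R² of *Pax6* was 0.0197 and 0.0423. Counting only values worth 0.75 UMI or more, the shares were 21.3% and 24.0% at 1 to 1.25π and 8.05% and 6.57% at 1.75 to 2π. The 3 deposited stage assignments did not give 1 order. Seurat stages had *Pax6* in 15.4% of G1, 20.6% of S and 30.8% of G2M cells of culture 1, and in 16.3%, 26.7% and 36.1% of culture 2. Cyclone stages gave 17.4% in G1 and 34.6% in G2M of culture 1, and 19.5% and 40.7% in culture 2. Of the 5 SchwabeCC stages, M.G1 was lowest in both cultures (13.8% and 15.5%). The SchwabeCC G2.M stage, at 21.6% and 23.5%, was not above S (23.1% and 34.6%) or G2 (23.2% and 31.6%). Cells with no such stage had 23.3% and 23.1%. Median UMIs were lower in G2.M (17514 and 13275) than in S (21185 and 15511) or G2 (20027 and 15761). Mean log2(value + 1) was 0.216 and 0.217 in G2.M, against 0.207 and 0.311 in S and 0.231 and 0.276 in G2. The plot of *Pax6* by position class shows the fall after 1.25π in all 3 ways of counting.

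**Figure D2:**
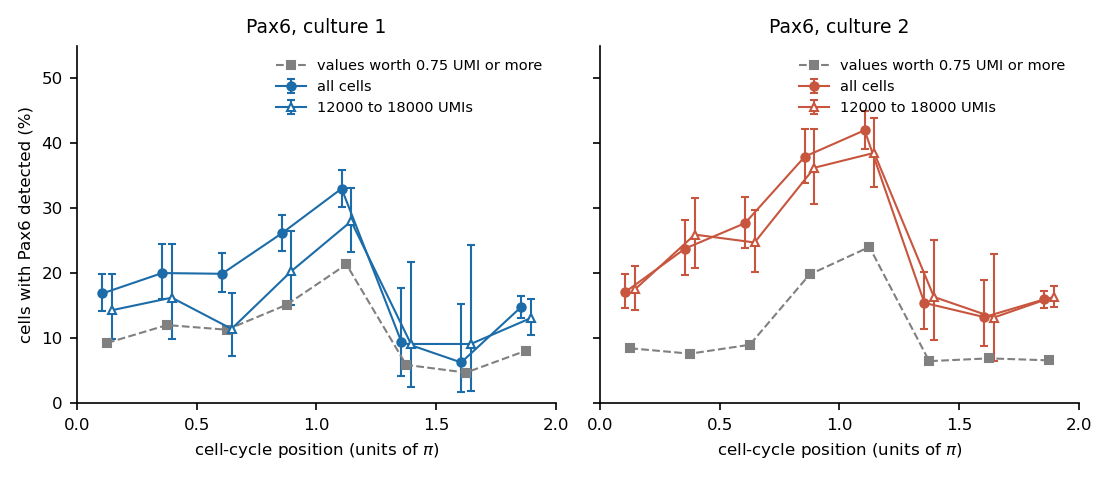
Share of cells with *Pax6* detected (y axis, percent) in 8 classes of cell-cycle position (x axis, units of π), culture 1 left and culture 2 right. Filled circles are all cells and open triangles cells of 12000 to 18000 UMIs, with exact 95% binomial intervals, and grey squares count only values worth 0.75 UMI or more. Each series is highest at 1 to 1.25π, where all cells give 33.0% and 42.0%.

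By class means, *Vim* varied along the position in culture 2 but little in culture 1. In culture 2 its mean log2(value + 1) was 4.18 at 0.75 to 1π and 4.91 at 1.75 to 2π, a range of 0.73 beside an SD among cells of 0.93. In culture 1 the classes of at least 300 cells spanned only 0.25, from 4.6 at 0 to 0.25π to 4.84 at 0.25 to 0.5π. Class means of *Nes* behaved in a like way. In culture 2 they were highest at 0.5 to 0.75π (2.31) and lowest at 1 to 1.25π (1.83). In culture 1 they spanned 0.29 with no dip near π. Both dips lay near π in 1 culture of 2, and past it *Vim* of culture 2 was at 4.62 at 1.25 to 1.5π and 4.81 at 1.5 to 1.75π. By deposited stage in culture 2, *Vim* averaged 4.86 in G1 and 4.31 in G2M cells of Seurat, whereas SchwabeCC stages gave 4.47 in S, 4.68 in G2 and 4.64 in G2.M. The periodic loess lines of culture 1 also dipped, but just past 0 and not near π. There *Vim* went from 4.97 at 1.885π to 4.35 at 0.025π, and *Nes* from 2.45 at 1.86π to 1.84 at 0.02π. The line of *Nes* spanned 0.62 in culture 1 and 0.52 in culture 2, and that of *Vim* 0.62 and 0.99. Whether the cultures differ cannot be tested with 1 value each.

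For *Fabp7*, the classes of at least 300 cells spanned 0.14 and 0.25 on the log2(value + 1) scale, with the highest mean at 0.25 to 0.5π in both cultures (6.47 and 6.48). *Hopx* spanned 0.018 in culture 1. In culture 2 it spanned 0.14, and went from 0.32 at 0 to 0.25π to 0.18 at 1 to 1.25π. At matched depth its detection in culture 2 went from 20.2% (16.8 to 23.8) to 10.8% (7.71 to 14.6) between those classes. In culture 1 the matched-depth shares at the same positions were 15.27% (10.62 to 20.97) and 13.98% (10.42 to 18.21), with overlapping intervals. Those of all cells in culture 1, with median UMIs of 17834 and 20527, were 20.6% and 24.5%. *Prom1* spanned 0.019 and 0.025 over classes of that size, and 0.046 over all 8 classes of culture 2. It was detected in 1.84% of Seurat G1 and 3.45% (2.59 to 4.49) of G2M cells of culture 1, and in 1.63% and 3.55% (2.72 to 4.55) of culture 2, with intervals of the stages that do not overlap. Depth also differed between these stages, with median UMIs of 18355 and 21419 in culture 1 and 14104 and 16100 in culture 2. By class, *Prom1* detection was highest at 1.5 to 1.75π, at 4.69% (0.977 to 13.1) of 64 cells and 4.76% (2.20 to 8.85) of 189 cells. Median UMIs there were 14812 and 12386. At matched depth, *Prom1* was found in 3.04% (1.47 to 5.52) and 2.33% (1.01 to 4.54) of cells at 1 to 1.25π and in 0.859% (0.28 to 1.99) and 1.43% (0.952 to 2.06) at 1.75 to 2π, with overlapping intervals in each culture. The classes between 1.25 and 1.75π held only 85 and 64 cells of culture 1, so the lines there rest on few cells.

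**Figure D3:**
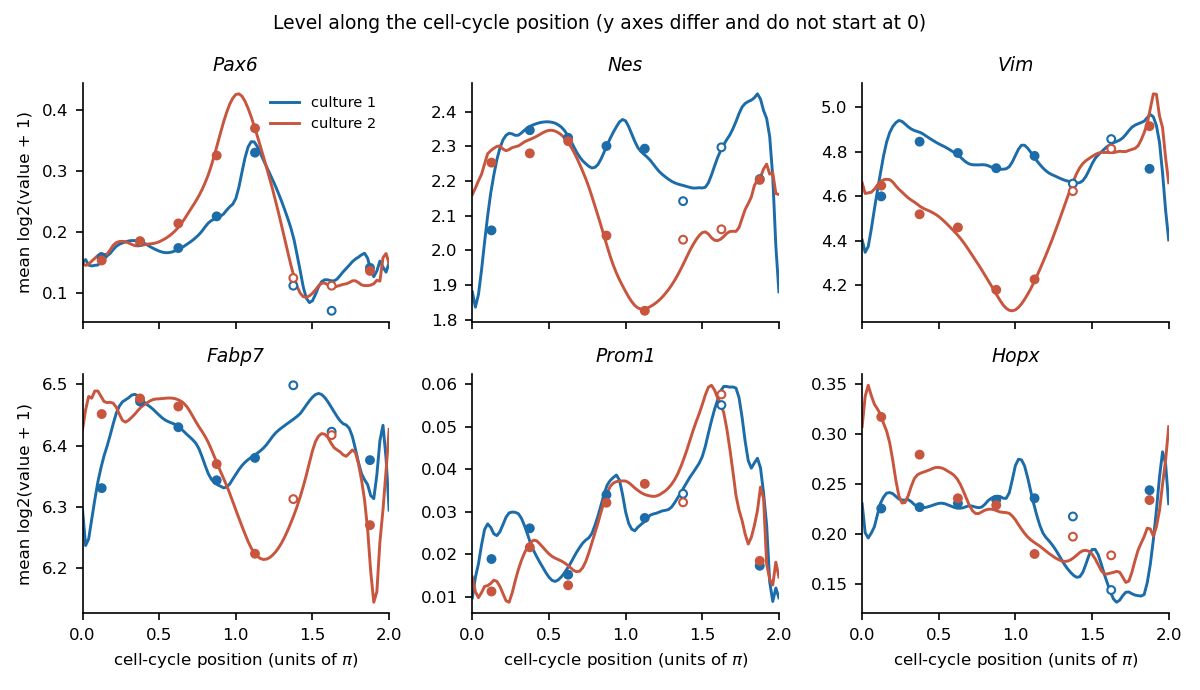
Mean log2(value + 1) (y axis, a different range for each gene) along the cell-cycle position (x axis, units of π) in culture 1 (blue) and culture 2 (red). Lines are periodic loess fits and points means of 8 classes, open where a class held under 300 cells. *Pax6* rises to a maximum near π in both cultures (1.11π and 1.015π). *Vim* and *Nes* dip near π in culture 2 and not in culture 1, where their lines dip just past 0.

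The members were next compared with each other, cell by cell. Pearson's r of log2(value + 1) was computed over the cells of each culture for the 15 pairs, and a pair was counted when r was at least 0.1 in both. These r values describe cells that share a library and a depth, and cells are not independent replicates, so no p-value is given. Of the pairs of a member with any other gene, 208 of 63990, or 0.325%, met this rule.

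One of the 15 pairs met it, the filament genes *Nes* and *Vim*, with r of 0.472 over 5748 cells of culture 1 and 0.211 over 7057 of culture 2. *Vim* was the gene with the highest lower r for *Nes* among all 10665 others. Spearman's rho was 0.454 and 0.218. After position and depth were taken out, r was 0.437 and 0.184, so the values stayed near those of the raw fit. Vimentin and nestin are known to assemble into shared filaments, nestin being unable to form filaments alone.

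The other 14 pairs did not meet the rule. In culture 1, *Vim* with *Fabp7* had r of 0.202, *Fabp7* with *Hopx* 0.144, *Vim* with *Hopx* 0.130 and *Nes* with *Fabp7* 0.127. In culture 2 these pairs had r of -0.042, 0.080, 0.044 and 0.035. Spearman's rho of the same pairs in culture 1 was 0.026, 0.156, 0.117 and 0.035. By ranks, *Vim* with *Fabp7* and *Nes* with *Fabp7* were thus near 0 in culture 1 too. *Pax6* had r between -0.031 and 0.032 with each other member in culture 1. In culture 2 *Pax6* with *Vim* had -0.097, the lowest of all 10665 genes for *Pax6* in that culture, and -0.038 after position and depth were taken out. Every pair with *Prom1* lay between -0.013 and 0.025.

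**Figure D4:**
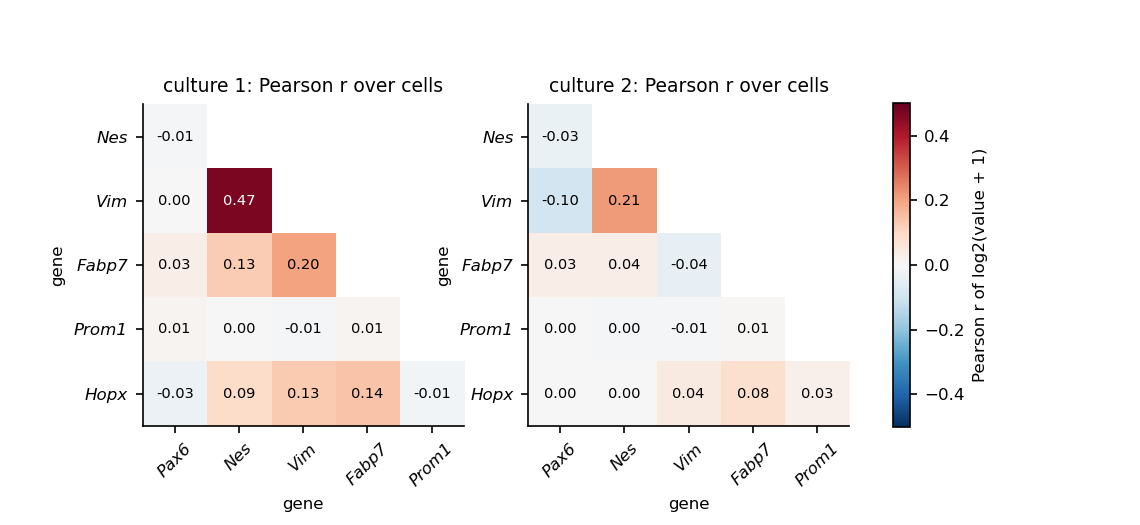
Pearson's r of log2(value + 1) over cells for each pair of the 6 genes (axes), with red positive and blue negative, in culture 1 (left, 5748 cells) and culture 2 (right, 7057 cells). *Nes* with *Vim* is the strongest pair in both (0.47 and 0.21), and *Vim* with *Fabp7* is positive in culture 1 (0.20) and slightly negative in culture 2 (-0.04).

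Some markers of other cells moved with these values in culture 1, and others did not. There *Vim* had r of -0.326 with *Sox10*, -0.333 with *S100b* and -0.237 with *Dcx*, and *Fabp7* had -0.255, -0.226 and -0.212 with the same genes. Other genes of the same lists went the other way with *Fabp7* in culture 1, namely *Apoe* (0.253), *Aldh1l1* (0.240), *Gja1* (0.189) and *Slc1a2* (0.182) of the 5 astrocyte genes, of which *Aldh1l1* met the rule with 0.114 in culture 2. The median r with *Fabp7* in culture 1 was 0.189 over the astrocyte list, -0.145 over the neuron list and -0.102 over the oligodendrocyte list. In culture 2 the r of *Vim* with *Sox10*, *S100b* and *Dcx* were -0.098, -0.026 and -0.069, and those of *Fabp7* with the same genes lay between -0.014 and 0.014. These 3 genes were picked after their values were seen, and in culture 1 each had negative r with both *Vim* and *Fabp7*. Leaving out cells that hold them is therefore expected to lower the r of *Vim* with *Fabp7*. Removal of other cells was not compared, so the values below are a description. Cells with any of these 3 genes detected numbered 1472 in culture 1 and 594 in culture 2. Without them *Nes* with *Vim* had r of 0.397 and 0.202. *Vim* with *Fabp7*, however, fell from 0.202 to -0.017 in culture 1, and *Nes* with *Fabp7* from 0.127 to 3.0e-05. *Fabp7* with *Hopx* was 0.124 and 0.082.

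*Dcx* also served as a check on background, since young neurons are expected to have lost radial glia RNA. Cells with *Dcx* detected (422 and 110, median UMIs 15219 and 17850) still held *Fabp7* in 100% of each culture and *Vim* in 96.0% and 100%. *Nes* was detected in 78.2% (74.0 to 82.0) of them in culture 1, against 94.5% of cells without *Dcx* (median UMIs 19618). In culture 2 the shares were 83.6% and 89.9%, with overlapping intervals. The log2(value + 1) means of *Vim* were 4.13 and 4.20 with *Dcx* and 4.78 and 4.65 without. Those of *Fabp7* were 5.90 and 6.33 with *Dcx* and 6.42 and 6.32 without. *Hopx* was detected in 15.9% (12.5 to 19.7) of cells with *Dcx* and 22.7% (21.6 to 23.8) of those without in culture 1. In culture 2 the *Hopx* shares went the other way, at 21.8% (14.5 to 30.7) and 17.0% (16.2 to 17.9), with overlapping intervals. *Pax6* was detected in 19.4% and 20.9% of the cells with *Dcx* and in 21.3% and 23.2% of those without, with overlapping intervals. Shares of *Pax6*, *Prom1* and *Fabp7* in cells without *Dcx* therefore did not exceed those in cells with it beyond counting error in either culture. The same held for *Nes*, *Vim* and *Hopx* in culture 2. In those cases free RNA and expression could not be told apart by this comparison. In culture 1 the cells with *Dcx* were also shallower, so the lower shares of *Nes*, *Vim* and *Hopx* there are not separated from depth. The shares of *Fabp7*, and of *Vim* in culture 2, were near 100% and had little room to differ. A single *Dcx* count does not make a cell a neuron.

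Each filament gene had many neighbours among the 10666 genes. *Vim* met the rule with 85 genes (0.797% of the others) and *Nes* with 19 (0.178%). Leaving out each other, 13 genes were common to both, which is 72.2% of those of *Nes* and 15.5% of those of *Vim*. The genes nearest to *Vim* were *Lgals1* (r of 0.388 and 0.355), which encodes galectin 1, *Tagln2* (0.446 and 0.352), an actin-binding transgelin, *Gap43* (0.370 and 0.342), a growth-associated membrane protein, *S100a10* (0.366 and 0.308), the annexin A2 partner, and *Clic1* (0.399 and 0.30), an intracellular chloride channel protein. *Nes* was nearest to *Vim*, followed by *Ccnd1* (0.401 and 0.188), which encodes cyclin D1 of G1 progression, *Lgals1* (0.357 and 0.174), *Tnc* (0.283 and 0.157), the matrix protein tenascin C, and *Gap43* (0.273 and 0.156).

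*Fabp7* met the rule with 39 genes (0.366%). The nearest were *Ptn* (0.496 and 0.331), the secreted growth factor pleiotrophin, *Dbi* (0.573 and 0.252), an acyl-CoA binding protein, *Pea15a* (0.483 and 0.230), an astrocytic phosphoprotein, *Mt3* (0.471 and 0.199), a brain metallothionein, and *Mest* (0.266 and 0.197), an imprinted gene. *Rtn1*, which is named because it was seen to be the 1 gene common to *Nes* and *Fabp7*, was also among the 3 common to *Vim* and *Fabp7*, with *Cotl1* and *Prdx1*. Most neighbours of *Fabp7* were not neighbours of a filament gene. The 3 shared with *Vim* are 7.69% of those of *Fabp7*, which is above the 0.797% of all other genes that met the rule with *Vim*. They are 3.53% of those of *Vim*, above the 0.366% that met it with *Fabp7*.

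*Pax6* met the rule with 64 genes (0.6%), and the nearest were *Top2a* (0.170 and 0.217), the kinesin *Cenpe* (0.168 and 0.189), the spindle proteins *Hmmr* (0.168 and 0.178) and *Tpx2* (0.157 and 0.179), and *Prc1* (0.159 and 0.199), which bundles midzone microtubules. With position and depth taken out, *Top2a* had 0.10 and 0.062, and the other 4 lay between 0.033 and 0.078. None of the 64 genes was a neighbour of another member. Of all other genes, 0.797% were neighbours of *Vim*, 0.366% of *Fabp7*, 0.178% of *Nes* and 0.00938% of *Hopx*. A count of 0 is near those shares and is no result about *Pax6*. The r values of *Pax6* are weak and come from sparse data.

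*Hopx* met the rule with 1 gene (0.00938%), *Bex2* (0.111 and 0.118), an X-linked brain-expressed gene. It was followed by *Spink2* (0.092 and 0.085), a protease inhibitor, *Fabp7* (0.144 and 0.080), *Hmgcs1* (0.090 and 0.077) and *Acat2* (0.077 and 0.077). The last pair encode enzymes of the mevalonate route to cholesterol. *Prom1* met it with 0 genes, and its highest were *Pbk* (0.048 and 0.052), a mitotic kinase, *Stmn1* (0.042 and 0.056), *Rrm2* (0.039 and 0.039), *Cenpe* (0.038 and 0.047) and *Nusap1* (0.041 and 0.037). With *Prom1* in 144 and 153 cells, such values are at the limit of what can be read.

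More of the other radial glia genes met the rule with *Fabp7* than with any other member. Of the 22 in the table, 8 had r of at least 0.1 with *Fabp7* in both cultures and none at most -0.1, with median r of 0.144 and 0.055 beside 0.0015 and -0.0007 over all genes. They were *Dbi*, *Ptn* and *Mt3*, given above, *Slc1a3* (0.511 and 0.195), *Ptprz1* (0.141 and 0.129), the phosphatase receptor of pleiotrophin, the chondroitin sulphate proteoglycan *Bcan* (0.173 and 0.116), the endothelin receptor *Ednrb* (0.171 and 0.113) and the LIM homeodomain factor *Lhx2* (0.172 and 0.102). The list was drawn up with earlier results of these data known, so its counts are a description. With *Vim*, 1 gene met the rule, *Tnc* (0.245 and 0.203), and 1 was at most -0.1 in both, *Bcan* (-0.195 and -0.139), beside 18 of all genes, or 0.169%. With *Nes*, *Tnc* alone met it, and with *Pax6*, *Prom1* and *Hopx* none did. Of all other genes, 0.366% met the rule with *Fabp7*, 0.797% with *Vim*, 0.178% with *Nes*, 0.6% with *Pax6*, 0.00938% with *Hopx* and 0% with *Prom1*. Counts of 0 with *Pax6*, *Prom1* and *Hopx* are near those shares and are no result about the list.

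*Vim* and *Slc1a3* went opposite ways in the 2 cultures. Their r was 0.120 in culture 1 and -0.335 in culture 2. Without cells that had *Dcx*, *Sox10* or *S100b* (genes picked after their values were seen), it was -0.088 in culture 1 and -0.357 in culture 2. *Mt3* with *Vim* went from 0.117 and -0.256 to -0.058 and -0.275 in the same way. By contrast, *Fabp7* with *Slc1a3* was 0.428 and 0.204 without those cells, and *Fabp7* with *Ptn* 0.358 and 0.330. The plot of both members against the other radial glia genes shows this split.

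**Figure D5:**
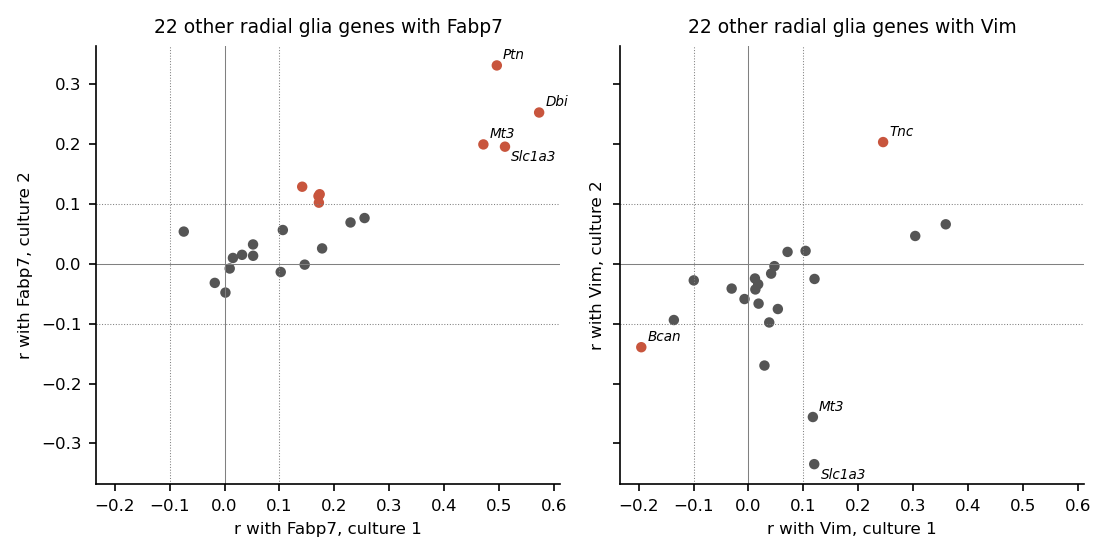
Each point is 1 of 22 other radial glia genes, with its Pearson's r over cells of culture 1 (x axis) and culture 2 (y axis) with *Fabp7* (left) and with *Vim* (right). Dotted lines mark 0.1 and -0.1, and red points are past them in the same direction in both cultures. With *Fabp7* 8 genes lie in the upper right, led by *Ptn* (0.496 and 0.331), whereas *Slc1a3* with *Vim* lies at 0.120 and -0.335.

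Notch signalling is the pathway through which neighbouring cells hold radial glia in the progenitor state. Of 23 listed ligands, receptors, transducers and targets, 16 are in the table, and none reached 0.1 or -0.1 in both cultures with any member, where 0.325% of all pairs reach 0.1 and 0.0484% reach -0.1. A count of 0 is near that background and is no result about these genes. *Hes1*, a target, had r of 0.178 and 0.026 with *Fabp7*, and the receptor *Notch1* 0.009 and -0.008. None of the 16 was called along the position, where 4.01% of all genes were. Of the 7 intermediate filament genes and linkers in the table, *Lmna*, which encodes lamins A and C, met the rule with *Vim* (0.137 and 0.20) as did *Nes*. *Lmnb1*, which encodes lamin B1, was the 1 gene of that list called along the position (R² of 0.464 and 0.377). *Fabp7* is the 1 member of its own family of 4 listed genes that is in the table.

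Few cells held every member, a share that cannot exceed that of *Prom1*, detected in 2.51% and 2.17% of cells. It was not set against the product of the members' shares. A cell had 3 of the 6 detected in 55.9% of culture 1 and 58.9% of culture 2, 4 in 32.7% and 29.4%, and 5 in 5.58% and 4.65%. No cell had none, of 5748 and of 7057. All 6 were detected in 9 cells of culture 1, or 0.157% (0.0716 to 0.297), and in 11 of culture 2, or 0.156% (0.0778 to 0.279). Those cells were deep, with median UMIs of 26454 and 24824. Averaged over the cultures the share was 0.156%, and it was 0.0129% at matched depth, 0.0071% where each value had to be at least 1, and 0.0615% with *Pax6* values under 0.75 UMI set to 0. *Nes*, *Vim* and *Fabp7* were found together in 92.9% and 89.8% of cells.

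*Pax6* and *Hopx* were found in the same cell about as often as their shares multiply to. Both were detected in 4.98% (4.43 to 5.57) of cells of culture 1 and in 4.42% (3.95 to 4.93) of culture 2, and the products of the shares are 4.69% and 3.96%. Both products lie within the intervals, that of culture 2 at the lower end. Of the cells with *Pax6*, 23.5% and 19.1% had *Hopx*, against 21.8% and 16.5% of those without, and cells with both had median UMIs of 25438 and 17393. *Pax6* was found with *Olig2* in 1188 and 1520 cells and without it in 27 (0.470%) and 113 (1.60%).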

How the data were processed

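Single-cell RNA-seq of 2 replicate cultures was used. The authors quantified spliced and unspliced reads with alevin of Salmon 1.3.0 against GRCm38, used Seurat 3.2.2, and removed outlying cells and rarely detected genes. The deposited expression values are a normalized signal, while the deposited depth of each cell (total UMIs) adds up alevin's estimated counts. Position in the cell cycle and stage were taken from the second deposited table, whose other columns the authors computed. Counts could not be recovered, so no count model or thinning of UMIs was used, and cells of matched depth stood in for it. No doublet caller was run here, since the study had removed cells by doublet score. Median depth per cell is given with the samples, and low values are less precise in culture 2.

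Values were transformed as log2(value + 1) for all 10666 genes (10662 with a symbol). R² of 2 harmonics, Pearson's r and periodic loess (span 0.3, degree 2, 401 positions) were computed within each culture with Python 3.11.15, numpy 2.4.6, scipy 1.17.1 and pandas 2.3.3, and were tested on simulated data. With 1 condition no test was run. Named genes are the members, the 5 with the highest lower r for each, and listed genes. The members and lists were chosen with earlier results of these data known. The planned neuron class (4 of 8 markers, of which 4 are in the table) held 2 cells, so cells with *Dcx* detected replaced it after the values were seen.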

Additional observations from a re-analysis of the deposited data

How the results depend on the processing

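The 3 summary values were recomputed with a pseudocount of 0.1, each cell rescaled to a sum of 10000, cells of matched depth, genes in at least 10% of cells, depth in the fit, other thresholds, harmonics and fits, and each culture left out. Chosen after seeing the data were fits without shared barcodes, without the 25% of cells of lowest depth, without cells with *Dcx*, *Sox10* or *S100b*, and with *Pax6* values under 0.75 UMI set to 0. The count of members called along the position was 0, became 1 (*Pax6*) at an R² of 0.02, and ranged from 0 to 2 when a culture was left out (2, *Vim* and *Pax6*, without culture 1). The count of pairs was 1 and ranged from 1 to 5 when a culture was left out (5 without culture 2). It was 1 under every other alternative run for it, the pair being *Nes* and *Vim*. The share of cells with all 6 members averaged 0.156% over the cultures. It became 0.0071% when a value of at least 1 was required, 0.0129% at matched depth and 0.0615% with low *Pax6* values at 0, and leaving out a culture gave 0.156% to 0.157%. Removing neuron-marker cells removed 2 cells. Leaving aside settings that fix a value by construction, 29 of 155 recomputed r of member pairs (means over the cultures) and 4 of 55 R² values moved by more than the SD between cultures. No paired analysis was possible because there is 1 condition. Depth limits *Pax6*, *Hopx* and *Prom1* most, and an SD over 2 cultures is itself imprecise.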
